A study of Mus musculus with 15 samples.

Results

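Imprinted genes are transcribed mainly or only from 1 of the 2 parental copies, and 38 of them, listed by symbol, were followed here in mouse neural precursor cells. Each symbol matched 1 of the 55416 gene rows counted by RNA sequencing. The cells came from the hippocampus of female mice aged 6 weeks, grew as monolayers and had been turned into 3 stable lines with the piggyBac transposon. The Atf3 line and the Atf4 line held the coding sequence of Atf3 or Atf4 behind the inducible TRE3G promoter, together with a SV40-TetON-3G transactivator and puromycin resistance. The control line held that cassette without either coding sequence. All 3 lines lost EGF and FGF from their medium to start differentiation, received 100 ng/ml doxycycline at that moment and were harvested 10 h later, with 5 libraries per line. ATF3 and ATF4 are bZIP transcription factors of the cellular stress response, and the lines were compared to find which transcripts differ when either is overexpressed. Each construct was represented by 1 line, so the transgene and any other property of that line cannot be told apart. The labels do not say that the 5 libraries of a line came from separate cultures, and p-values then measure only the spread between these libraries, which may be technical.

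Imprinting depends on DNA methylation laid down differently in egg and sperm at short control regions, and it is kept in the embryo by zinc finger proteins such as ZFP57 with TRIM28 and the methyltransferase DNMT1. Most imprinted genes sit in clusters, in which a protein-coding gene from 1 parent often lies beside a noncoding RNA from the other. Many of them act on growth, on placenta and on brain, and several, such as Dlk1 and Igf2, are known regulators of neural stem cells. The 38 genes comprised 20 known as paternally expressed, 9 known as maternally expressed and 9 whose imprinting depends on tissue or transcript, called variable here. The counts add both parental copies, so they give the total RNA of a gene and not its imprint.

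The libraries held 53697071 to 69561713 counts each, and replicates of a line differed by more than counting noise in every pair (chi-square per degree of freedom 5.47 to 53.4, the highest between Atf4 replicates 1 and 5). Atf3 itself stood at 5.02 ± 4.10 CPM (counts relative to the TMM-scaled total of the library, mean ± SD, n = 5 here and below) in the control line, at 1941 ± 120 in the Atf3 line and at 1.40 ± 0.306 in the Atf4 line. Atf4 stood at 83.2 ± 6.75, 250.3 ± 16.5 and 153 ± 21.7 CPM, so the Atf4 line held less Atf4 RNA than the Atf3 line. The 8 neural precursor markers were present in every line, at a summed 3465 to 3741 CPM in the control libraries, 4391 to 4595 in the Atf3 line and 4088 to 4320 in the Atf4 line. The 8 neuronal markers summed to 1646 to 1827, 1340 to 1568 and 1363 to 1519 CPM. The 8 mural cell and fibroblast markers reached at most 1.39 CPM, the 5 microglia markers at most 1.47 and the 5 endothelial markers 44.8 to 49.1, 12.4 to 18.5 and 18.4 to 21.5 CPM. Members of these lists did not all go 1 way. Of 3 endothelial markers tested, 1 was higher and 2 lower in the Atf3 than in the control line (edgeR, adjusted p under 0.05). Of the 8 neural precursor markers 3 were higher and 1 lower there, and of 7 neuronal markers tested 1 was higher and 4 lower. Of all genes tested, 73.2% were called in that comparison. The part of these marker differences in the results below was not tested, and in such bulk RNA fewer cells of a type and less RNA per cell cannot be told apart.

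Per exon length, the tetraspanin gene Cd81 was the most abundant of the 38 in the control line, at 310.1 RPKM (CPM divided by the exon length in kilobases). It was followed by Mest, Nap1l5, Impact, Blcap, Gnas, H13 and Igf2r, at 46.2, 41.5, 21.8, 17.7, 17.4, 13.4 and 10.9 RPKM. The control libraries of Blcap and Gnas overlapped, while those of the other neighbours in this order did not. Of the genes known as maternally expressed, Igf2r alone was above 1 RPKM in the control line, and the next, Zim1, stood at 0.324 RPKM. The growth factor Igf2 and its neighbour H19 were close to silent, at 0.00177 and 0.00981 RPKM. A filter on low counts removed 11 of the 38: Mirg, Rtl1, Igf2, H19, Ddc, Magel2, Snurf, Zdbf2, Phlda2, Slc22a18 and Rasgrf1. Of the 27 that were tested, Meg3, Rian, Asb4 and Grb10 met the filter's minimum of 0.174 CPM in every control library but not in every library of another line. The filter asked for 5 libraries at that minimum. Rian, with 3 such Atf3 libraries and 1 such Atf4 library, passed only through the control line, so the counts and medians that include it describe the genes that passed and support nothing further.

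**Figure D1:**
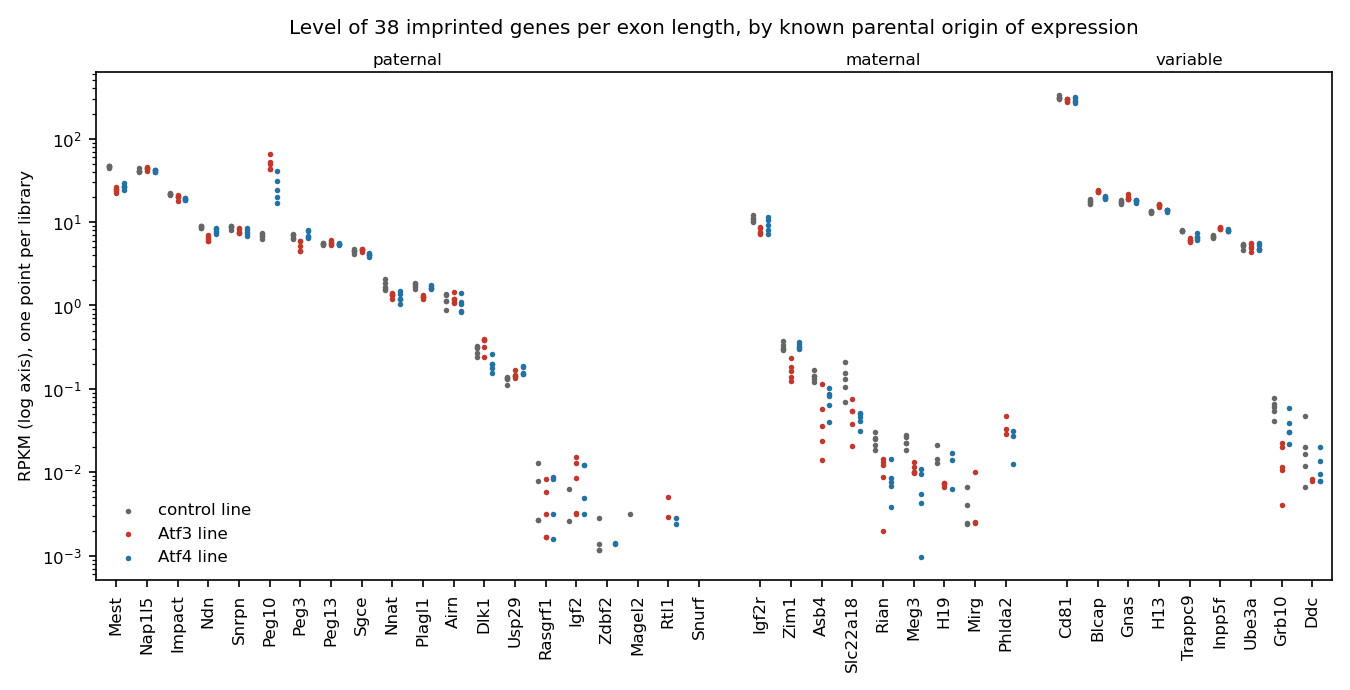
RPKM of each of the 38 imprinted genes (log axis, 1 point per library; grey control line, red Atf3 line, blue Atf4 line), ordered within the paternal, maternal and variable classes by the mean of the control line. Libraries with 0 counts are not drawn, so Snurf, with 0 counts in all 15, has no point; among the tested paternal genes the Peg10 points of the lines are the most widely separated.

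Against the control line, 19 of the 27 tested imprinted genes changed in the Atf3 line, 5 higher and 14 lower (edgeR's quasi-likelihood test, adjusted p under 0.05 over all 18244 genes tested). Across all genes tested, 73.2% were called in that comparison, 36.8% higher and 36.3% lower, so the share of imprinted genes called, 70.4%, was near that of all genes. In the Atf4 line 16 of 27 changed, 4 higher and 12 lower, against 61.6% of all genes, 31.9% higher and 29.7% lower. Between the lines, 7 were higher and 7 lower in the Atf4 than in the Atf3 line, where 43.6% of all genes were called, 19.7% higher and 23.9% lower. Of the 27 imprinted genes, 5 differed at least 2-fold in the Atf3 line, 3 in the Atf4 line and 1 between the lines. Of all genes, 17.5%, 9.03% and 3.27% were past that size. Rian, which passed the filter only through the control line, was among the 5 and the 3. The 5 libraries of 1 line lay wholly above or below those of the other for 18, 10 and 9 imprinted genes, and for 60.7%, 47.9% and 25.8% of all genes.

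Across all genes, the direction of the differences varied with the level. The median log2 fold change of all genes with a mean under 1 CPM was -0.41 in the Atf3 and -0.20 in the Atf4 line, and that of genes averaging 10 CPM or more was 0.12 and 0.06. Of the 18 imprinted genes whose mean over all libraries reached 10 CPM, 5 rose and 8 fell in the Atf3 line, where 51.8% and 31.5% of all genes at that level were called higher and lower. In the Atf4 line 3 of these 18 were higher and 6 lower, beside 44% and 29.6% of all such genes. Between the lines 5 were higher and 6 lower in the Atf4 line, beside 17.8% and 36.4%. The median log2 fold change over these 18 genes was -0.06 in either line.

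**Figure D2:**
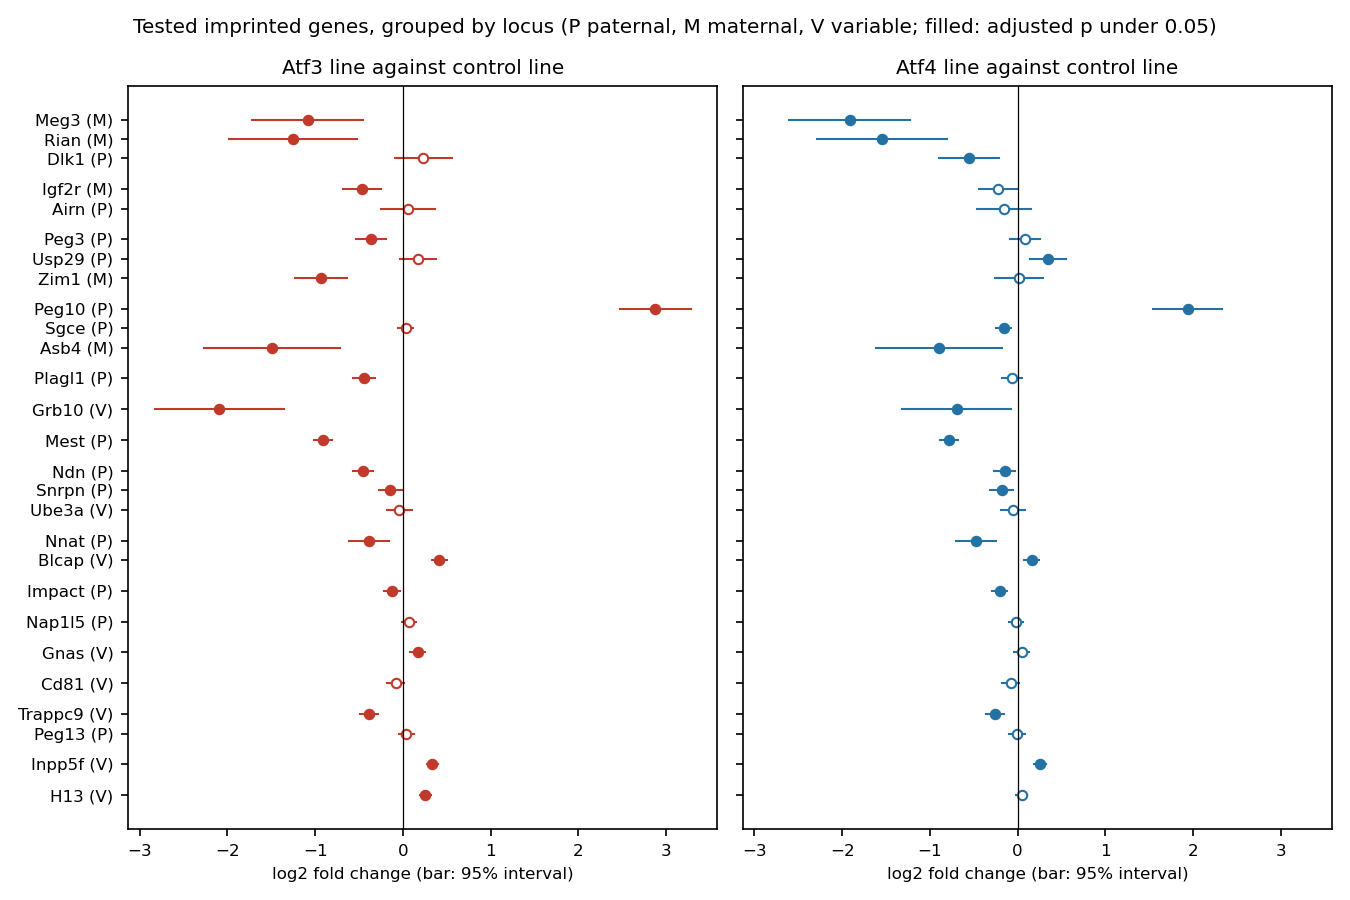
Log2 fold change of the 27 tested imprinted genes in the Atf3 line (left) and the Atf4 line (right) against the control line, grouped by locus; bars are 95% intervals and filled points have an adjusted p under 0.05. Peg10 stands to the right of 0 in both panels, at 2.88 and 1.94, while Meg3, Rian, Asb4, Grb10 and Mest stand to the left in both; the panels share the control libraries.

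By parental origin, all 5 tested genes known as maternally expressed (Meg3, Rian, Igf2r, Zim1 and Asb4) were lower in the Atf3 line, with a median log2 fold change of -1.09. Rian among them passed the filter only through the control line. Zim1 and Igf2r met the minimum in every library and were lower by 0.94 and 0.46 on the log2 scale. In the Atf4 line 3 of the 5 were lower, with a median of -0.90, and neither Zim1 nor Igf2r was called. Of the 14 tested paternally expressed genes, 1 was higher and 7 lower in the Atf3 line and 2 higher and 7 lower in the Atf4 line, with medians of -0.04 and -0.15. Among all genes 36.8% rose and 36.3% fell in the first comparison, and 31.9% and 29.7% in the second. The share of paternal genes called was 57.1% in the Atf3 line, beside 73.2% of all genes, and 64.3% in the Atf4 line, beside 61.6%. Of the 8 tested variable genes, 4 rose and 2 fell in the Atf3 line, and 2 rose and 2 fell in the Atf4 line, with medians of 0.07 and -0.004. The medians over all genes tested were -0.02 and -0.00085. At 10 CPM or more the classes held 10 paternal, 1 maternal and 7 variable genes, and of the paternal genes there 1 rose and 6 fell in the Atf3 line, and 1 rose and 5 fell in the Atf4 line. Since Igf2r was the sole maternal gene at that level, paternal and maternal genes could not be compared at matched levels.

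Of the tested imprinted genes, Peg10 rose most in both transgenic lines. Peg10 is a paternally expressed gene derived from a retrotransposon, known to be required for the placenta, and it lies on chr6:4747306-4760517 beside Sgce, the gene of epsilon-sarcoglycan, on the other strand (chr6:4674350-4747207). The annotated starts of the 2 genes are 99 bases apart, and both are imprinted through 1 shared control region. Peg10 stood at 41.9, 45.8, 49.8, 48.4 and 45.5 CPM in control replicates 1 to 5, at 346, 292, 439, 293 and 329 in the Atf3 line and at 113, 133, 164, 207 and 272 in the Atf4 line. All Atf3 and Atf4 libraries were above all control libraries, and all Atf3 libraries were above all Atf4 libraries. Within the Atf4 line Peg10 rose in order from replicate 1 to replicate 5, and the cause of that order was not tested. It was not confined to Peg10: Cd81 went down in the same order, from 910 to 774 CPM. Over all genes, chi-square per degree of freedom between Atf4 replicate 1 and replicates 2 to 5 was 9.01, 8.48, 24.5 and 53.4. Against the control line Peg10 was 7.34 times as high in the Atf3 line (log2 fold change 2.88 ± 0.18, estimate ± SE, edgeR adjusted p = 8.5e-11) and 3.84 times as high in the Atf4 line (1.94 ± 0.18, edgeR adjusted p = 2.9e-08), and the Atf4 line was lower than the Atf3 line by 0.94 on the log2 scale (edgeR adjusted p = 2.8e-04). Ordered by fold change from the largest rise, Peg10 stood at place 68 of 18244 genes in the Atf3 line and place 128 in the Atf4 line, or at places 14 and 37 of the 9951 genes whose mean reached 10 CPM. Leaving out each library in turn moved its log2 fold change between 2.77 and 2.93 in the Atf3 line and between 1.72 and 2.06 in the Atf4 line.

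Sgce did not rise with its neighbour. It stood at 47.8 ± 2.01, 49.0 ± 1.35 and 42.9 ± 1.82 CPM in the control, Atf3 and Atf4 lines. It was not called in the Atf3 line (log2 fold change 0.03 ± 0.04, 95% interval -0.05 to 0.12) and was lower in the Atf4 line (-0.16 ± 0.04, edgeR adjusted p = 0.0017). Without TMM scaling its Atf3 value turned to -0.10 (edgeR adjusted p = 0.0199). The ratio of Peg10 to Sgce counts, which does not depend on scaling, was 0.839, 0.946, 1.04, 1.09 and 0.943 in the control libraries, 6.95, 5.86, 8.84, 6.01 and 7.04 in the Atf3 line and 2.51, 3.02, 3.87, 5.13 and 6.38 in the Atf4 line. Its means were 0.970 ± 0.0959, 6.94 ± 1.19 and 4.18 ± 1.58, with no overlap between the control line and either other line. Further along the same cluster, 636.2 kb from the start of Sgce, lies the maternally expressed Asb4 (chr6:5383386-5433022), which codes for an ankyrin repeat protein of the SOCS box family. Asb4 was low everywhere, with 41, 31, 29, 38 and 32 counts in the control libraries, 3, 25, 8, 5 and 14 in the Atf3 line and 21, 24, 23, 9 and 14 in the Atf4 line. It was lower in the Atf3 line (log2 fold change -1.49 ± 0.36, edgeR adjusted p = 9.9e-04) and in the Atf4 line (-0.90 ± 0.33, edgeR adjusted p = 0.024), where the call was lost without control replicate 1 (edgeR adjusted p = 0.0523) or Atf4 replicate 4 (0.0613). No difference between the lines passed the test (0.59 ± 0.38), except without Atf3 replicate 2 (1.15, edgeR adjusted p = 0.0128).

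**Figure D3:**
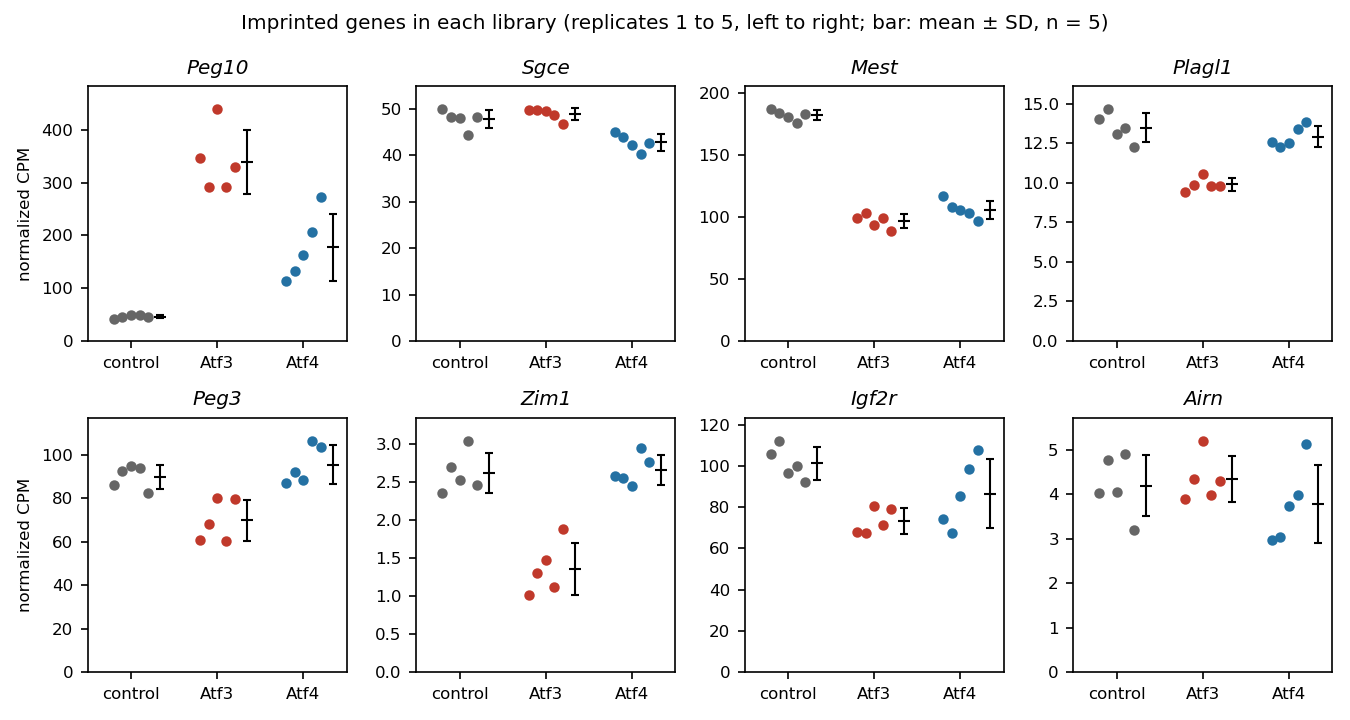
Normalized CPM of 8 imprinted genes in each library (linear axes from 0; replicates 1 to 5 from left to right, bar mean ± SD, n = 5). Peg10 separates all 3 lines while its neighbour Sgce has means of 47.8, 49.0 and 42.9 CPM; Mest is lower in both transgenic lines, and Plagl1, Peg3 and Zim1 are lower in the Atf3 line.

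Mest fell in both lines. Mest, also called Peg1, is a paternally expressed gene of the alpha/beta hydrolase family that acts on growth, and it lies on chr6:30723547-30748465. Mest stood at 187, 184, 180.3, 176 and 183 CPM in control replicates 1 to 5, at 99.0, 104, 93.4, 99.2 and 88.4 in the Atf3 line and at 117, 108, 105, 103 and 96.5 in the Atf4 line. Within the Atf4 line the values went down in order from replicate 1 to replicate 5. The control libraries were all above those of the other lines. The fall was 1.88-fold in the Atf3 line (log2 fold change -0.91 ± 0.05, edgeR adjusted p = 4.9e-12) and 1.72-fold in the Atf4 line (-0.78 ± 0.05, edgeR adjusted p = 9.6e-11). The Atf4 line was slightly above the Atf3 line (0.13 ± 0.05, edgeR adjusted p = 0.031), a call lost without Atf3 replicate 3 or 5 or Atf4 replicate 1 or 2 (edgeR adjusted p = 0.0588 to 0.098) and with no filter on low counts (0.054).

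Copg2, a coat protein gene on the other strand whose exons share 23.1% of the exon bases of Mest, stood at 98.8 ± 1.65, 81.1 ± 2.68 and 86.8 ± 6.41 CPM and was lower as well (-0.28 ± 0.04 and -0.19 ± 0.04, edgeR adjusted p = 9.2e-06 and 9.6e-04). The library kit does not mark strand, so reads in the shared bases cannot be assigned to 1 of the genes. The ratio of Mest to Copg2 counts was 1.84 ± 0.0515, 1.19 ± 0.0852 and 1.22 ± 0.0308 in the control, Atf3 and Atf4 lines, and all control libraries were above all others. Mest is the host gene of miR-335, and the row of its hairpin, Mir335, had 9 to 16 counts in the control libraries, 1 to 4 in the Atf3 line and 2 to 4 in the Atf4 line. Libraries of this kind are not made from small RNA, and this row does not measure the mature miRNA.

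The 2 mature forms of miR-335, which share their source with Mest, are given here from RefSeq (GRCm38.p6) with the seed, bases 2 to 8, in capitals. The window from 250 bases before to 50 after the start of the Mest transcript annotated furthest along the chromosome, chr6:30737803-30738102 on the plus strand, is given beside them; capitals there mark TGCCGC on either strand, the hexamer that ZFP57 is known to bind when methylated. Mest is an imprinted gene whose promoter is itself methylated on the maternal copy.
miR-335-5p: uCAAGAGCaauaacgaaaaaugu
miR-335-3p: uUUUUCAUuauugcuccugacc
Mest promoter: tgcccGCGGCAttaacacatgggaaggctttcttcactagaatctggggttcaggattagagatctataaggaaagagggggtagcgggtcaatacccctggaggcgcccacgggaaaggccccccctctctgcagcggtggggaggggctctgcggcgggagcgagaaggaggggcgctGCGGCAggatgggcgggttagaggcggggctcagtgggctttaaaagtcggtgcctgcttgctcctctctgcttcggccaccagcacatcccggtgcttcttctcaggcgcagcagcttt

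In the Peg3 cluster the 2 lines differed. Peg3 (chr7:6703892-6730431), a paternally expressed zinc finger gene known for its part in growth and maternal behaviour, was lower in the Atf3 line and not in the Atf4 line. Peg3 stood at 85.9, 92.5, 94.9, 93.9 and 82.4 CPM in control replicates 1 to 5, at 60.6, 68.2, 80.0, 60.6 and 79.5 in the Atf3 line and at 87.0, 91.9, 88.4, 106 and 104 in the Atf4 line. The Atf3 libraries were below all others. Its log2 fold change was -0.37 ± 0.08 in the Atf3 line (edgeR adjusted p = 4.5e-04) and 0.09 ± 0.08 in the Atf4 line (95% interval -0.09 to 0.26), and the lines differed by 0.45 ± 0.08 (edgeR adjusted p = 1.9e-04).

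Zim1 (chr7:6671269-6696450), the maternally expressed zinc finger gene next to Peg3, had the same pattern at a lower level. Zim1 stood at 2.36, 2.70, 2.53, 3.04 and 2.46 CPM in control replicates 1 to 5, at 1.02, 1.31, 1.48, 1.12 and 1.88 in the Atf3 line and at 2.58, 2.56, 2.45, 2.94 and 2.76 in the Atf4 line. Every Atf3 library was below every other library, and the control and Atf4 libraries overlapped. Its log2 fold change was -0.94 ± 0.14 in the Atf3 line (edgeR adjusted p = 5.1e-06), 0.02 ± 0.13 in the Atf4 line (95% interval -0.26 to 0.29) and 0.96 ± 0.14 between them (edgeR adjusted p = 2.2e-05). The ratio of Peg3 to Zim1 counts was 34.5 ± 2.60, 52.5 ± 6.38 and 35.9 ± 1.35 in the control, Atf3 and Atf4 lines, with all Atf3 libraries above all others.

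Usp29 (chr7:6730578-6967219), a paternally expressed gene of a ubiquitin peptidase that is read from the Peg3 promoter in the opposite direction, went another way. It stood at 2.35 ± 0.196, 2.66 ± 0.224 and 2.99 ± 0.315 CPM, was not called in the Atf3 line (log2 fold change 0.17 ± 0.10, 95% interval -0.03 to 0.38) and was higher in the Atf4 line (0.34 ± 0.09, edgeR adjusted p = 0.0039). The ratio of Peg3 to Usp29 counts was 38.5 ± 5.30, 26.3 ± 3.80 and 32.1 ± 3.52, and all Atf3 libraries were below all control libraries. The exons of Usp29 share 14.3% of their bases with Zim3 on the other strand.

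The promoters of the cluster are shown because Peg3 and Zim1 moved together in the Atf3 line while Usp29, which starts beside Peg3, did not. The windows are chr7:6730370-6730669 for Peg3 and chr7:6696383-6696682 for Zim1, both on the minus strand and written 5′ to 3′ (RefSeq, GRCm38.p6). Capitals mark TGACGTCA, the full cAMP response element, in the Peg3 window and TGCCGC on either strand in the Zim1 window. The windows of Peg3 and Usp29 share 263 bases, and the TGACGTCA in both is the same site, which begins at base 6730590.
Peg3 promoter: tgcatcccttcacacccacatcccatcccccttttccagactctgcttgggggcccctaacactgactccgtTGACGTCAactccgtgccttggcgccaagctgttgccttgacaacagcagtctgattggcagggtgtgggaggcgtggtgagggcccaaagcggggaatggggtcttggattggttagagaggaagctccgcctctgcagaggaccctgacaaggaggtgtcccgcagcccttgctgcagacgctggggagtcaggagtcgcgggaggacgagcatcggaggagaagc
Zim1 promoter: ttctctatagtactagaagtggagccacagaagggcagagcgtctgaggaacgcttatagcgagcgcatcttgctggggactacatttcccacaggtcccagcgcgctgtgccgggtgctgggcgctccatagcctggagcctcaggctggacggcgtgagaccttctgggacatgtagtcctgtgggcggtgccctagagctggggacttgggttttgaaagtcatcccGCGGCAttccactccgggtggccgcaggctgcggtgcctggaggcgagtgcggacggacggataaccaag

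Igf2r fell in the Atf3 line. Igf2r (chr17:12682406-12769664) codes for the receptor that clears IGF2 and sorts lysosomal enzymes, and it is silenced on the paternal copy by Airn (chr17:12741311-12860136), a noncoding RNA transcribed across its start on the other strand. Igf2r stood at 106, 112, 96.3, 100.0 and 92.1 CPM in control replicates 1 to 5, at 68.0, 67.5, 80.4, 71.6 and 79.1 in the Atf3 line and at 74.4, 67.4, 85.2, 98.3 and 108 in the Atf4 line. Atf3 and control libraries did not overlap, whereas the Atf4 libraries spanned both. The log2 fold change was -0.46 ± 0.10 in the Atf3 line (edgeR adjusted p = 3.5e-04) and -0.23 ± 0.10 in the Atf4 line (edgeR adjusted p = 0.054).

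The Atf4 value of Igf2r lay at the threshold. It was called with DESeq2 (adjusted p = 0.0377), with limma-voom (0.0356), with edgeR under other scaling or filters (0.0263 to 0.047), and without control replicate 3 or 5 or Atf4 replicate 4 or 5 (edgeR adjusted p = 0.00267 to 0.0447). Between the lines Igf2r was not called (0.24 ± 0.10, edgeR adjusted p = 0.059), except without Atf3 replicate 3 or Atf4 replicate 1 or 2 (edgeR adjusted p = 0.00791 to 0.0492). It was also called without TMM scaling (edgeR adjusted p = 0.00894), with no filter or a filter at 1 CPM (0.0275 and 0.0374) and with DESeq2 (0.0406). Airn stood at 4.19 ± 0.678, 4.34 ± 0.519 and 3.77 ± 0.873 CPM and was not called in any comparison. Without Atf4 replicate 5, its highest Atf4 library, it was lower in the Atf4 than in the control line (-0.30, edgeR adjusted p = 0.0445) and the Atf3 line (-0.34, edgeR adjusted p = 0.0359). The ratio of Igf2r to Airn counts was 24.5 ± 3.12, 17.0 ± 1.37 and 23.1 ± 1.72 in the control, Atf3 and Atf4 lines, and all Atf3 libraries were below all others. Airn begins within Igf2r, with 0 exon bases shared, and the kit does not mark strand. Reads of unspliced Igf2r RNA could therefore have been counted as Airn, which was not tested.

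The ligand of that receptor was near its detection limit. Igf2 had 0, 2, 0, 1 and 0 counts in the control libraries, 4, 1, 5, 1 and 3 in the Atf3 line and 0, 2, 4, 4 and 1 in the Atf4 line, and 62.8% of its exon bases are shared with the overlapping gene Gm49394. H19, the maternally expressed noncoding RNA of the same locus, had 2, 2, 3, 0 and 0 counts in the control libraries, 1, 1, 1, 0 and 1 in the Atf3 line and 1, 3, 0, 2 and 0 in the Atf4 line. Both had libraries with counts of 0 in the control line, and a count of 0 allows up to 3 counts, 0.0445 to 0.0537 CPM in the control libraries, for counting error only. Neither was tested.

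Of 16 other genes of IGF and insulin signalling, 12 were tested, of which 7 rose and 5 fell in the Atf3 line, 4 rose and 4 fell in the Atf4 line, and 3 were higher and 6 lower in the Atf4 than in the Atf3 line. The shares of all genes called in these comparisons were 73.2%, 61.6% and 43.6%. The median log2 fold change of the 12 was 0.58 in the Atf3 and 0.01 in the Atf4 line. Binding proteins that hold IGFs outside the cell were among those that changed. Igfbp2 stood at 992 ± 45.1, 3189.6 ± 320.3 and 2434 ± 183 CPM in the control, Atf3 and Atf4 lines, and Igfbp3 at 399.6 ± 22.2, 1829.8 ± 124 and 1224 ± 159 CPM. Both rose in both lines, as did Igfbp4 (log2 fold change 2.61 ± 0.13 and 2.12 ± 0.14), and all 3 had edgeR adjusted p-values of at most 2.5e-10. Igfbp5 fell (-0.90 ± 0.08 and -0.66 ± 0.08), as did Igf2bp3, which binds Igf2 mRNA (-1.15 ± 0.16 and -1.27 ± 0.16), with edgeR adjusted p-values of at most 3.1e-06. The secreted protease gene Htra1 fell in both lines (-1.11 ± 0.09 and -0.45 ± 0.08, edgeR adjusted p = 1.2e-09 and 1.4e-04). The insulin receptor gene Insr fell as well (-0.53 ± 0.09 and -0.53 ± 0.09, edgeR adjusted p = 1.8e-05 and 3.0e-05).

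The Dlk1-Dio3 cluster on chromosome 12 was low, and Dlk1 was its only paternal gene that was tested. Its maternal copy makes the noncoding RNAs Meg3, Rian and Mirg, which carry small nucleolar RNAs and miRNAs, and its paternal copy makes Dlk1, a membrane protein related to Notch ligands, and Rtl1, a retrotransposon-derived protein. Meg3 (chr12:109541001-109571726) had 21, 23, 27, 27 and 34 counts in the control libraries, 10, 10, 12, 13 and 11 in the Atf3 line and 5, 7, 10, 1 and 11 in the Atf4 line. Rian (chr12:109603940-109661716) had 35, 26, 22, 31 and 23 counts in the control libraries, 13, 2, 15, 12 and 10 in the Atf3 line and 17, 5, 9, 8 and 7 in the Atf4 line. For both, all control libraries were above all libraries of the other lines.

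Meg3 was lower in the Atf3 line (log2 fold change -1.09 ± 0.29, edgeR adjusted p = 0.0026) and in the Atf4 line (-1.91 ± 0.32, edgeR adjusted p = 3.8e-05). Rian had log2 fold changes of -1.25 ± 0.34 and -1.54 ± 0.34 (edgeR adjusted p = 0.0026 and 6.9e-04). It passed the filter on low counts only through the control line, so these values describe Rian and support nothing further. Between the lines neither Meg3 nor Rian was called, except Meg3 without Atf4 replicate 3 or 5 (-1.02 and -1.10, edgeR adjusted p = 0.0425 and 0.0223) and with limma-voom (-1.09, adjusted p = 0.0344). Dlk1 (chr12:109452823-109463336) stood at 1.65 ± 0.202, 1.94 ± 0.370 and 1.13 ± 0.228 CPM, and it was lower in the Atf4 than in the control line (-0.55 ± 0.16, edgeR adjusted p = 0.0054) and the Atf3 line (-0.78 ± 0.16, edgeR adjusted p = 5.9e-04). In the Atf3 line Dlk1 was not called (0.23 ± 0.15), except without Atf3 replicate 5 (0.34, edgeR adjusted p = 0.0342). Mirg had 3, 1, 1, 2 and 0 counts in the control libraries, 1, 1, 0, 4 and 0 in the Atf3 line and 0, 0, 0, 0 and 0 in the Atf4 line. Rtl1 had 0 counts in every control library and 3 and 2 counts in all over the Atf3 and the Atf4 line.

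Grb10 fell in the Atf3 line from an already low level. Grb10 (chr11:11930508-12038683) codes for an adaptor that inhibits insulin and IGF1 receptor signalling, and it is maternally expressed in most tissues and paternally expressed in neurons. It had 37, 39, 28, 25 and 37 counts in the control libraries, 10, 2, 6, 11 and 6 in the Atf3 line and 18, 38, 16, 20 and 11 in the Atf4 line, so the Atf3 libraries were below all control libraries and the Atf4 libraries overlapped both. The log2 fold change was -2.09 ± 0.34 in the Atf3 line (edgeR adjusted p = 1.9e-05), -0.69 ± 0.28 in the Atf4 line (edgeR adjusted p = 0.041) and 1.40 ± 0.36 between them (edgeR adjusted p = 0.0041). The Atf4 call was lost without any 1 of control replicates 1, 2 and 5 and Atf4 replicates 1, 3, 4 and 5 (edgeR adjusted p = 0.0553 to 0.0991), and with no filter on low counts (0.0652). Ddc, its neighbour, which makes dopamine and serotonin from their precursors, was not tested and had 13, 5, 3, 5 and 2 counts in the control libraries, 2, 0, 2, 0 and 0 in the Atf3 line and 4, 3, 2, 2 and 5 in the Atf4 line.

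Plagl1 was lower in the Atf3 line and not in the Atf4 line. Plagl1, also called Zac1 (chr10:13060504-13131694), is a paternally expressed zinc finger transcription factor known to restrain cell cycle progression and to regulate other imprinted genes. Plagl1 stood at 14.0, 14.7, 13.1, 13.4 and 12.3 CPM in control replicates 1 to 5, at 9.45, 9.88, 10.6, 9.81 and 9.82 in the Atf3 line and at 12.6, 12.3, 12.5, 13.4 and 13.8 in the Atf4 line. The Atf3 libraries were below all others, and the control and Atf4 libraries overlapped. Its log2 fold change was -0.44 ± 0.06 in the Atf3 line (edgeR adjusted p = 7.7e-07), -0.06 ± 0.05 in the Atf4 line (95% interval -0.18 to 0.06) and 0.38 ± 0.06 between them (edgeR adjusted p = 2.8e-05).

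The Plagl1 window, chr10:13090582-13090881 on the plus strand (RefSeq, GRCm38.p6), is shown with capitals marking TGCCGC on either strand. Plagl1, like Mest and Peg3, is read from a promoter that is methylated on the maternal copy. These 3 genes were lower in the Atf3 line, but paternally expressed genes did not all go 1 way. Of the 14 tested, 7 were lower there, 1 was higher (Peg10, log2 fold change 2.88) and 6 were not called. A link between promoter methylation and these changes was not tested.
Plagl1 promoter: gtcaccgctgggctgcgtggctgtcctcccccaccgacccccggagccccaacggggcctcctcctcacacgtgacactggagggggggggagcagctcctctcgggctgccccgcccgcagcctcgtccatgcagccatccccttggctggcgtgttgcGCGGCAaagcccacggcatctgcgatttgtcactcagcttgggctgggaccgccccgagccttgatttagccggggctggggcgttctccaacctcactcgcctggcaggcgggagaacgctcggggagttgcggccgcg

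In the Snrpn to Ube3a region on chromosome 7, whose loss in people causes Prader-Willi and Angelman syndromes, Ndn was lower in the Atf3 line. Ndn (chr7:62346569-62350262), the paternally expressed gene of the MAGE family protein necdin, which is known in differentiating neurons, stood at 32.2 ± 1.02, 23.5 ± 1.74 and 29.1 ± 2.02 CPM. Its log2 fold change was -0.45 ± 0.05 in the Atf3 line (edgeR adjusted p = 4.1e-07), -0.15 ± 0.05 in the Atf4 line (edgeR adjusted p = 0.023) and 0.31 ± 0.05 between them (edgeR adjusted p = 1.8e-04). With no filter on low counts the Atf4 call of Ndn was lost (edgeR adjusted p = 0.0751). Snrpn (chr7:59982495-60140219), which codes for a splicing protein and is read from the imprinting center, stood at 18.8 ± 0.789, 17.0 ± 1.06 and 16.6 ± 1.54 CPM and was lower by less (-0.14 ± 0.06 and -0.18 ± 0.06, edgeR adjusted p = 0.038 and 0.015). Its exons share 27.3% of their bases with Gm38393. The Snrpn call in the Atf3 line was lost without Atf3 replicate 1, 3 or 5 (edgeR adjusted p = 0.0823 to 0.104) and with no filter (0.137). The ratio of Ndn to Snrpn counts was 1.71 ± 0.0561, 1.38 ± 0.0249 and 1.76 ± 0.0511, with all Atf3 libraries below all others.

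Ube3a (chr7:59228750-59311536), a ubiquitin ligase gene that is maternally expressed in mature neurons, stood at 107 ± 6.81, 104 ± 9.67 and 103 ± 8.44 CPM and was not called in any comparison (log2 fold change -0.04 ± 0.06 and -0.05 ± 0.06). Without TMM scaling it was lower in the Atf3 line (-0.18, edgeR adjusted p = 0.0196). Its exons share 27.3% of their bases with genes on the other strand, 9.82% with Gm44560 and 8.74% with the antisense RNA Snhg14 among them. Reads there cannot be assigned by strand. Snurf had 0 counts in all 15 libraries: its 216 exon bases all lie within Snrpn and Gm38393, and the counts of these genes are uncertain for that reason. Magel2, a MAGE family gene next to Ndn, had 1 count in control replicate 4 and 0 elsewhere.

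At the Nnat-Blcap locus the 2 genes went in opposite directions. Nnat (chr2:157560078-157562522), the paternally expressed gene of the small membrane protein neuronatin, lies in an intron of Blcap (chr2:157556362-157571274), which also codes for a small membrane protein. Nnat stood at 2.84, 3.85, 2.90, 3.40 and 3.03 CPM in control replicates 1 to 5, at 2.53, 2.47, 2.18, 2.46 and 2.60 in the Atf3 line and at 2.21, 2.19, 1.91, 2.52 and 2.71 in the Atf4 line. All libraries of the Atf3 and the Atf4 line were below all control libraries. Nnat fell by 0.39 ± 0.11 and 0.47 ± 0.11 on the log2 scale (edgeR adjusted p = 0.0033 and 8.0e-04). Blcap, at 53.7 ± 3.11, 71.6 ± 1.85 and 60.1 ± 1.76 CPM, rose in both lines (0.41 ± 0.04 and 0.16 ± 0.04, edgeR adjusted p = 1.8e-08 and 0.0014) and was lower in the Atf4 than in the Atf3 line (-0.25 ± 0.04, edgeR adjusted p = 5.3e-05). The ratio of Nnat to Blcap counts was 0.0600 ± 0.0108, 0.0342 ± 0.00267 and 0.0383 ± 0.00455 in the control, Atf3 and Atf4 lines, with all control libraries above all others. Reads of unspliced Blcap RNA could have been counted as Nnat, which was not tested.

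A similar arrangement holds at Trappc9 (chr15:72589620-73061204), which codes for a subunit of a vesicle trafficking complex and contains the paternally expressed noncoding RNA Peg13 (chr15:72805600-72810324) in an intron. Trappc9 stood at 62.5 ± 1.06, 48.0 ± 2.14 and 52.4 ± 4.08 CPM and was lower in both lines (-0.38 ± 0.05 and -0.25 ± 0.05, edgeR adjusted p = 5.6e-07 and 1.1e-04). It was slightly higher in the Atf4 than in the Atf3 line (0.13 ± 0.05, edgeR adjusted p = 0.033), a call lost without Atf3 replicate 1, 3 or 5 or Atf4 replicate 1, 3 or 4 (edgeR adjusted p = 0.0523 to 0.103) and with no filter on low counts (0.0794). Peg13 stood at 26.0 ± 0.622, 26.8 ± 1.55 and 25.9 ± 0.451 CPM and was not called in any comparison, with 95% intervals of -0.05 to 0.13 and -0.09 to 0.08. Without TMM scaling its Atf3 value turned to -0.10 (edgeR adjusted p = 0.0355). The ratio of Trappc9 to Peg13 counts was 2.40 ± 0.0894, 1.80 ± 0.0667 and 2.02 ± 0.194, and all Atf3 libraries were below all control libraries. Reads of unspliced Trappc9 RNA could have been counted as Peg13, which was not tested.

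**Figure D4:**
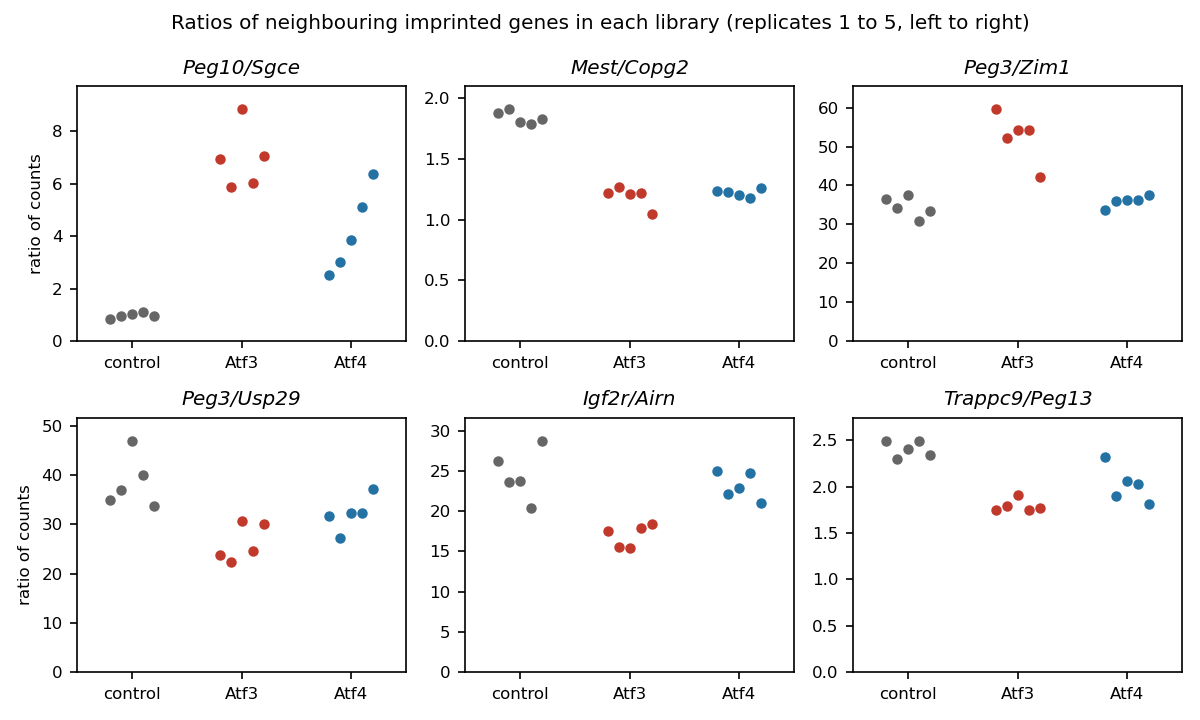
Ratio of the counts of neighbouring imprinted genes in each library (linear axes from 0, replicates 1 to 5 from left to right). Ratios of counts do not depend on library scaling and are not per length; Peg10/Sgce separates the control line from both others, Mest/Copg2 is lower in both transgenic lines, and Peg3/Zim1 and Igf2r/Airn separate the Atf3 line from the others.

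Impact was lower in both lines. Impact (chr18:12955852-12992950) is a paternally expressed gene whose product inhibits GCN2, 1 of the kinases upstream of ATF4 translation. Impact stood at 110.4, 111, 109, 116 and 113 CPM in control replicates 1 to 5, at 106, 103, 109, 91.0 and 104 in the Atf3 line and at 94.3, 100.2, 96.4, 94.2 and 99.5 in the Atf4 line. All control libraries were above all libraries of the other lines, and the Atf3 and Atf4 libraries overlapped, with Atf3 replicate 4 the lowest. Its log2 fold change was -0.12 ± 0.04 in the Atf3 line (edgeR adjusted p = 0.011) and -0.21 ± 0.04 in the Atf4 line (edgeR adjusted p = 2.6e-04). Without Atf3 replicate 4 the Atf3 value was -0.08 (edgeR adjusted p = 0.0338), and the Atf4 line was then lower than the Atf3 line (-0.12, edgeR adjusted p = 0.00469). With no filter on low counts the Atf3 call was lost (edgeR adjusted p = 0.0971).

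Inpp5f (chr7:128611328-128696425), a phosphoinositide phosphatase gene, stood at 55.4 ± 1.71, 70.0 ± 1.56 and 66.2 ± 1.47 CPM and rose in both lines (0.34 ± 0.03 and 0.26 ± 0.03, edgeR adjusted p = 1.4e-08 and 1.0e-06). Its difference between the lines (-0.08 ± 0.03, edgeR adjusted p = 0.044) was lost without any 1 of 12 of the 15 libraries (edgeR adjusted p = 0.0503 to 0.117), under each other scaling or filter and with these lines fitted alone (0.0504 to 0.604). Without TMM scaling its sign turned: 0.02. H13 (chr2:152669461-152708670), the gene of signal peptide peptidase, whose transcript ends differ between the parental copies, stood at 119 ± 2.81, 142 ± 3.57 and 123 ± 2.11 CPM, rose in the Atf3 line (0.26 ± 0.03, edgeR adjusted p = 2.1e-07) and was not called in the Atf4 line (0.05 ± 0.03), and the lines differed (-0.21 ± 0.03, edgeR adjusted p = 1.6e-05).

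Gnas (chr2:174284320-174346744), which codes for the stimulatory G protein alpha subunit and for other products with different imprints, stood at 195 ± 6.65, 219.7 ± 12.2 and 201 ± 7.10 CPM. It was higher in the Atf3 line (0.17 ± 0.04, edgeR adjusted p = 6.9e-04), but not without TMM scaling (0.03, edgeR adjusted p = 0.444), and was not called in the Atf4 line (0.05 ± 0.04). The lines differed (-0.13 ± 0.04, edgeR adjusted p = 0.014), a call lost without Atf4 replicate 4 (edgeR adjusted p = 0.0566), without TMM scaling (0.632) or with these lines fitted alone (0.0581). Row counts do not separate its transcripts, and its exons share 13.1% of their bases with Gm20721 on the other strand and 8.83% with Nespas. Nap1l5 (chr6:58905233-58907076), a paternally expressed gene of the nucleosome assembly protein family, stood at 76.6 ± 2.82, 80.5 ± 3.16 and 75.9 ± 2.69 CPM and was not called. Without Atf3 replicate 4 it was higher in the Atf3 than in the control line (0.10, edgeR adjusted p = 0.0208) and lower in the Atf4 than in the Atf3 line (-0.11, edgeR adjusted p = 0.0222).

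Of the Kcnq1 cluster on chromosome 7, which is silenced on the paternal copy by the noncoding RNA Kcnq1ot1, the 3 listed genes differed mainly in level. Cd81 (chr7:143052739-143067934) stood at 893 ± 40.6, 842 ± 26.8 and 844 ± 55.7 CPM and was not called (log2 fold change -0.08 ± 0.04 and -0.08 ± 0.04, edgeR adjusted p = 0.088 and 0.12). It was called lower in the Atf3 line without control replicate 3 or 4 or any 1 of the Atf4 libraries (edgeR adjusted p = 0.0208 to 0.0456). The same held without TMM scaling (-0.22, edgeR adjusted p = 0.000131), with a filter at 1 CPM (-0.14, 0.00503) and with these lines fitted alone (0.0387). It was called lower in the Atf4 line without control replicate 4 or Atf4 replicate 1 or 2 (edgeR adjusted p = 0.0203 to 0.0431), without TMM scaling (0.0244) and with a filter at 1 CPM (0.0243). Slc22a18, a maternally expressed transporter gene, was too low to test, with 14, 20, 15, 8 and 12 counts in the control libraries, 5, 7, 2, 5 and 4 in the Atf3 line and 5, 6, 5, 4 and 3 in the Atf4 line. In CPM its control libraries were above all Atf4 libraries and overlapped the Atf3 libraries. Phlda2, a maternally expressed gene that limits placental growth, had 0 counts in every control library, 0 to 3 in the Atf3 line and 0 to 2 in the Atf4 line. The remaining 2 untested genes, the Ras exchange factor gene Rasgrf1 and the zinc finger gene Zdbf2, had at most 8 and 2 counts in a library.

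Further imprinted genes were called in both directions. Among 44 further genes known or reported as imprinted in mouse, 27 were tested, of which 10 rose and 13 fell in the Atf3 line, 7 rose and 10 fell in the Atf4 line, and 8 were higher and 5 lower in the Atf4 than in the Atf3 line. That is 85.2%, 63.0% and 48.1% of those tested, beside 73.2%, 61.6% and 43.6% of all genes. Their median log2 fold changes were -0.11, -0.03 and 0.10. In the Kcnq1 cluster Cdkn1c, the maternally expressed cell cycle inhibitor p57, stood at 19.8 ± 1.33, 4.76 ± 0.487 and 6.78 ± 1.62 CPM in the control, Atf3 and Atf4 lines (-2.06 ± 0.12 and -1.54 ± 0.12, edgeR adjusted p = 2.8e-11 and 2.2e-09). Kcnq1ot1, the paternally expressed RNA of the cluster, stood at 13.6 ± 2.64, 4.25 ± 0.642 and 4.81 ± 1.03 CPM (-1.67 ± 0.15 and -1.51 ± 0.15, edgeR adjusted p = 8.7e-09 and 6.1e-08). Both fell in both lines, with control libraries above all others. Kcnq1ot1 lies antisense within Kcnq1, and reads there cannot be assigned by strand.

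Osbpl5, a lipid transfer protein gene of that cluster, fell too (-1.14 ± 0.12 and -0.83 ± 0.12, edgeR adjusted p = 1.1e-07 and 9.0e-06), while Nap1l4, a nucleosome assembly gene there, rose (0.51 ± 0.03 and 0.30 ± 0.03, edgeR adjusted p = 8.7e-11 and 2.3e-07). Peg12, a paternally expressed gene of the region of Ndn and Magel2, rose from 17.6 ± 1.33 CPM to 43.5 ± 5.16 and 25.9 ± 3.96 (1.31 ± 0.09 and 0.56 ± 0.09, edgeR adjusted p = 3.7e-10 and 4.5e-05). Atp10a, a phospholipid flippase gene beside Ube3a, rose in both lines (0.55 ± 0.06 and 0.89 ± 0.06, edgeR adjusted p = 2.8e-07 and 7.2e-10). Begain, a synaptic protein gene near Dlk1, rose as well (0.62 ± 0.06 and 0.36 ± 0.06, edgeR adjusted p = 5.9e-08 and 9.5e-05). Phactr2 fell in both lines (-0.66 ± 0.06 and -0.28 ± 0.06, edgeR adjusted p = 3.7e-09 and 2.2e-04). Herc3 fell in the Atf3 line (-0.51 ± 0.04, edgeR adjusted p = 6.2e-10) and was not called in the Atf4 line (-0.02 ± 0.04). Herc3 differed between the lines by 0.49 ± 0.04 (edgeR adjusted p = 5.5e-08).

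Of 17 factors that set or keep imprints, 14 were tested, of which 9 rose and 3 fell in the Atf3 line, 8 rose and 2 fell in the Atf4 line, and 3 were higher and 2 lower in the Atf4 than in the Atf3 line. That is 85.7%, 71.4% and 35.7% of those tested, beside 73.2%, 61.6% and 43.6% of all genes. Of all genes averaging 10 CPM or more, 51.8% rose in the Atf3 and 44% in the Atf4 line. The median log2 fold changes of these factors were 0.23, 0.22 and -0.01. Uhrf1, which brings DNMT1 to newly replicated DNA, stood at 49.9 ± 3.92, 170.0 ± 6.02 and 158 ± 16.8 CPM in the control, Atf3 and Atf4 lines (1.77 ± 0.07 and 1.66 ± 0.06), Dnmt1 at 74.1 ± 3.33, 187 ± 10.6 and 193 ± 29.9 CPM (1.34 ± 0.08 and 1.38 ± 0.08) and Trim28, the partner of ZFP57, at 208 ± 6.24, 335 ± 20.1 and 331 ± 12.9 CPM (0.69 ± 0.04 and 0.67 ± 0.04). All 3 rose in both lines, with edgeR adjusted p-values of at most 9.9e-11. Arid4b and the zinc finger gene Zfp445 fell in both lines (-0.50 ± 0.04 and -0.36 ± 0.04 for Arid4b, -0.22 ± 0.04 and -0.22 ± 0.04 for Zfp445, edgeR adjusted p at most 2.7e-04), and the histone demethylase gene Kdm1b fell in the Atf3 line (-0.28 ± 0.04, edgeR adjusted p = 1.7e-06) and was not called in the Atf4 line (-0.08 ± 0.04). Zfp57 itself stood at 2.09 ± 0.323, 2.25 ± 0.260 and 2.04 ± 0.367 CPM and was not called in any comparison.

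RefSeq windows of 300 bases, from 250 before to 50 after a start, existed for 31 of the 38 genes, 47 windows in all, some of which overlap; H19, Impact, Peg10, Peg13, Rtl1, Sgce and Trappc9 were not matched. The hexamer TGCCGC was found on either strand in 25.5% of these windows (12 windows of 11 genes) and in 11.6% of all 32851 windows of this length. Some matches were counted more than once: 2 Mest windows hold the same matches, and Snrpn and Snurf have the same window. The full cAMP response element TGACGTCA, to which ATF and CREB proteins are known to bind, was in 8.51% (4 windows, of Meg3, Peg3, Usp29 and Zdbf2) and in 1.79% of all windows. Of these 4 genes, Meg3 was lower in both lines, Peg3 was lower in the Atf3 line, Usp29 was higher in the Atf4 line and Zdbf2 was not tested. The AP-1 motif TGANTCA was in 4.26% of the windows and 7.81% of all, and TGATGNAA, the element that C/EBP and ATF4 pairs are known to bind, was in 0 of the 47 and 3.97% of all. Windows of imprinted genes held a median of 12 CpG pairs in the paternal class, 9 in the maternal and 21 in the variable class, and all windows a median of 7. TGCCGC and TGACGTCA both contain CG, and their shares were not compared at matched CpG content. These matches describe the letters of the windows and not binding.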

How the data were processed

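The deposited table held whole-number counts of reads per Ensembl gene for 15 libraries of paired-end RNA sequencing, 5 per line. The submitters' processing notes name STAR, edgeR and the mm10 build; the gene annotation and counting settings were not given in the sources used here. These counts were used as deposited, with no normalization by the authors. Symbols came from GENCODE M21 (GRCm38), which named 52083 of 55416 rows and all 38 members.

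All 15 libraries were fitted together with edgeR 4.0.16 (R 4.3.3): TMM scaling, edgeR's default expression filter (minimum count 10, here 0.174 CPM), 1 coefficient per line, the quasi-likelihood test with 12 residual degrees of freedom, and Benjamini-Hochberg adjustment over 18244 genes. The 95% intervals used a t value with those 12 degrees of freedom. The test adds prior degrees of freedom, so its p-values can be smaller than these intervals imply. Library totals were 53697071 to 69561713 counts, so values of genes with a few counts are limited by counting error. The steps were tested on simulated data. They recovered 46% to 62% of 1.25-fold changes and 70% to 82% of 2-fold changes, depending on the comparison. Only 50 of 18244 genes were changed at each size there, while 43.6% to 73.2% of all genes were called in the data. With so few changed genes the adjustment is stricter, so these shares do not measure recovery in the data. A gene that was not called may still differ. DESeq2 1.42.0, limma-voom 3.58.1, other scalings and filters, a fit of 2 lines, a replicate block and fits without each library were tried as alternatives.

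The members, classes and lists were chosen with earlier results of these data known. Values in every library were to be given for members at 1 CPM or more in a line that changed at least 2-fold, which named Peg10; other members were given so, or had their promoter printed, after their values were seen. From each other list up to 3 rising and 3 falling genes per comparison, by adjusted p, were named; values of Copg2 and Zfp57, and those of named genes in the comparison where the rule does not name them, were likewise added after being seen. Same-numbered replicates did not deviate together (correlations -0.249 to 0.253), so the numbers were not used as pairs. Marker lists were used only to describe the cultures, and the choroid plexus and ependymal markers summed to 20.5 to 24.5, 30.5 to 40.3 and 28.7 to 37.9 CPM in the control, Atf3 and Atf4 lines.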

Additional observations from a re-analysis of the deposited data

Results flagged for a closer look

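Among the tested imprinted genes, 1 library stood apart from the 4 others of its line. For H13, Atf4 replicate 2 had 118.9 CPM, while the other Atf4 libraries lay between 122.9 and 123.9 CPM. The gap was 0.788 of the range of the line, above the Dixon limit of 0.71 for 5 samples. It was the only such library in 81 sets of 5 values examined, and chance sets apart about 1 in 20 such groups.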

How the results depend on the processing

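Over all alternatives, 1931 member results were recomputed: 1830 kept their side of the threshold (of these, 39 that were not called changed sign), 52 lost a call, 46 gained 1 and 3 reversed. With a 2-fold minimum, 1 imprinted gene rose and 4 fell in the Atf3 line, 1 and 2 for the Atf4 line, and 1 and 0 between the lines, beside 1299 and 1891, 765 and 882, and 422 and 174 of all genes. Without TMM scaling the median of all genes moved to -0.16, -0.04 and 0.11 in the 3 comparisons, and the values for the Atf3 line turned to -0.10 for Sgce, -0.10 for Peg13, -0.074 for Pon2 and -0.011 for Arid4a, and that between the lines to 0.021 for Inpp5f. Between the lines 6196 genes were then higher and 2369 lower, with 4 imprinted genes lower, and the paternal medians were -0.18 in the Atf3 line and 0.038 between the lines.

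The maternal medians moved with the filter on low counts. They (-1.09, -0.90 and 0.24) became -0.76, -0.14 and 0.62 with a filter at 1 CPM, since fewer genes were tested, and -0.14 between the lines with no filter. In the Atf4 line the maternal median was -1.31 without control replicates 4 and 5 and ranged from -1.30 to -0.84 when each library was left out. With the variable genes added to the class of their better known imprinted product, the medians in the Atf3 line were 0.033 (paternal) and -0.42 (maternal), and the maternal median in the Atf4 line was -0.15. The cause of the other changes was not tested.

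With a replicate block, 5 imprinted genes rose and 13 fell in the Atf3 line, 4 and 12 for the Atf4 line, and 7 and 6 between the lines; all genes gave 6630 and 6502, 5691 and 5277, and 3413 and 4176. The blocked medians were -0.05, -0.15 and -0.06 (paternal) and -1.08, -0.95 and 0.23 (maternal). The block ended the calls of Snrpn in the Atf3 line (edgeR adjusted p = 0.051), Grb10 in the Atf4 line (0.0505) and Inpp5f between the lines (0.0808), and gave 1 for Igf2r in the Atf4 line (0.0481).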
